A study of Homo sapiens with 9 samples.

Results

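The wybutosine synthesis enzymes were examined as a group of 6 genes: TYW2, TRMT5, TYW1, TYW3, LCMT2 and TYW5. They were chosen by their place in the pathway, and every probe annotated to a member, by its current symbol or an older alias, was taken. Each gene had 1 probe, so the group comprised 6 probes among the 35328 on the array, which named 16287 genes. All 6 probes passed the filter on low signal and were among the 28259 probes tested. Messenger RNA was compared on 9 two-colour arrays of SKbr3 cells, a human breast cancer line with amplified ERBB2. Each array set cells given an siRNA against TRMT12, the older symbol of TYW2, against cells given control siRNA, for 3 different TRMT12 siRNAs with 3 arrays each. The knockdown RNA carried Cy5 on arrays 1 and 2 of each siRNA and Cy3 on array 3, where the dyes were exchanged. The text of the series gives the same control siRNA for all comparisons, while the sample labels number the controls, so whether control RNA was shared was not settled. If it was, the comparisons of the 3 siRNAs are not independent of each other. No label states separate cultures, time after transfection or siRNA dose. The p-values of a single siRNA rest on the spread between hybridisations, pooled over all 9 arrays, and that spread may be technical.

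Wybutosine is a tricyclic guanosine found directly after the anticodon of phenylalanine transfer RNA in eukaryotes, where it helps to keep the reading frame. The pathway is best known from budding yeast and runs in a fixed order. TRMT5 methylates the guanosine, TYW1 closes the tricyclic ring with an iron-sulfur cluster, and TYW2 attaches an aminocarboxypropyl side chain taken from S-adenosylmethionine. TYW3 then methylates the ring, and LCMT2, the human counterpart of yeast Tyw4, methylates the side chain and adds a methoxycarbonyl group to it. TYW5 is a JmjC-type hydroxylase that works on the side chain in human cells and gives hydroxywybutosine. The arrays measured the messenger RNAs of these enzymes and not the modified base or the proteins.

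The deposited values were spot intensities above local background in both channels. They are given here as log2 ratios of knockdown over control after loess normalisation within each array, so 0 means equal signal and -1 means that the knockdown signal was 50% of control. The median spot intensity of an array was 175.6 to 418.45 for the knockdown and 130.7 to 514.8 for the control. Between 2.57% and 24.4% of probes on an array gave no ratio. All 9 genes listed as line markers, among them ERBB2, KRT8 and EPCAM, had a probe above background in both channels on all 9 arrays. CDH1, a gene this line is known to lack, was among them, by 1 of its probes. Its other probe was above background on 5 arrays in the knockdown channel and 3 in the control channel. Signal above background alone is therefore not taken as expression. By brightest probe, 2 of 9 line markers were called lower with siRNA 1, 2 with siRNA 2 and 1 with siRNA 3. None was called higher by its brightest probe. Of all tested probes 11.3%, 9.74% and 10.1% were called lower. GATA3, a luminal transcription factor, was lower on 9 of 9 arrays and called lower with each siRNA, a call made for 2.58% of all tested probes. Its mean was -0.53 over the siRNAs (limma adjusted p = 0.0823), and its dye term was called (-0.24, adjusted p = 0.0102). FOXA1, another such factor, was called lower with siRNA 1 and siRNA 2. The dimmer ERBB2 probe was called lower with each siRNA (-0.70, -0.59 and -0.26), while the brighter was not called with any. The dimmer GRB7 probe was called higher with siRNA 2 (0.25), and the brighter GRB7 probe was not called with any. Of 6 genes that mark other cells, VIM, COL1A1 and PTPRC had such a probe, and PECAM1, CD3E and ESR1 had none. The dye-balanced mean over the siRNAs was -0.10 for VIM, -0.22 for COL1A1 and 0.12 for PTPRC, with limma adjusted p of 0.509, 0.172 and 0.338, and these COL1A1 and VIM probes were called lower with siRNA 1. The dimmer COL1A1 probe was called lower with siRNA 2 (-0.53) and siRNA 3 (-0.58). ESR1 was called higher with siRNA 1 (0.39) and siRNA 3 (0.34) and lower with siRNA 2 (-0.63), from a dim probe with a ratio on 8 arrays. The part of these markers in the results was not tested.

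TYW2, the siRNA target, was lower on every array. Its normalised log2 ratio was -2.55, -2.73 and -2.65 on arrays 1 to 3 of siRNA 1. It was -2.62, -2.62 and -2.36 with siRNA 2, and -2.61, -2.51 and -2.35 with siRNA 3. The 9 values spanned 15.1% to 19.6% of control, and the arrays of the 3 siRNAs overlapped. The spot remained measurable after knockdown: its intensity was 217.9 to 485.5 in the knockdown channel, at least 10.6 background SDs, and 912.8 to 2695.1 in the control channel. Over the siRNAs the mean log2 ratio was -2.53 (SE 0.0733, n = 3 siRNAs, 95% interval -2.72 to -2.34), or 17.3% of control, and limma gave an adjusted p of 0.00999. Adding the local background back to both channels raised the residual to 33.6% of control and ended that call (-1.57, adjusted p = 0.0561). The authors' calibrated ratios gave -2.60 (adjusted p = 0.0532), and leaving out array 3 of siRNA 2 gave -2.57 (adjusted p = 0.0562). With each siRNA taken singly, TYW2 was called lower under all 20 alternatives. Dropping the signal filter changed nothing. Asking for signal in both channels or filtering on spot quality left the 9 TYW2 ratios unchanged and altered only which other probes were tested.

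**Figure D1:**
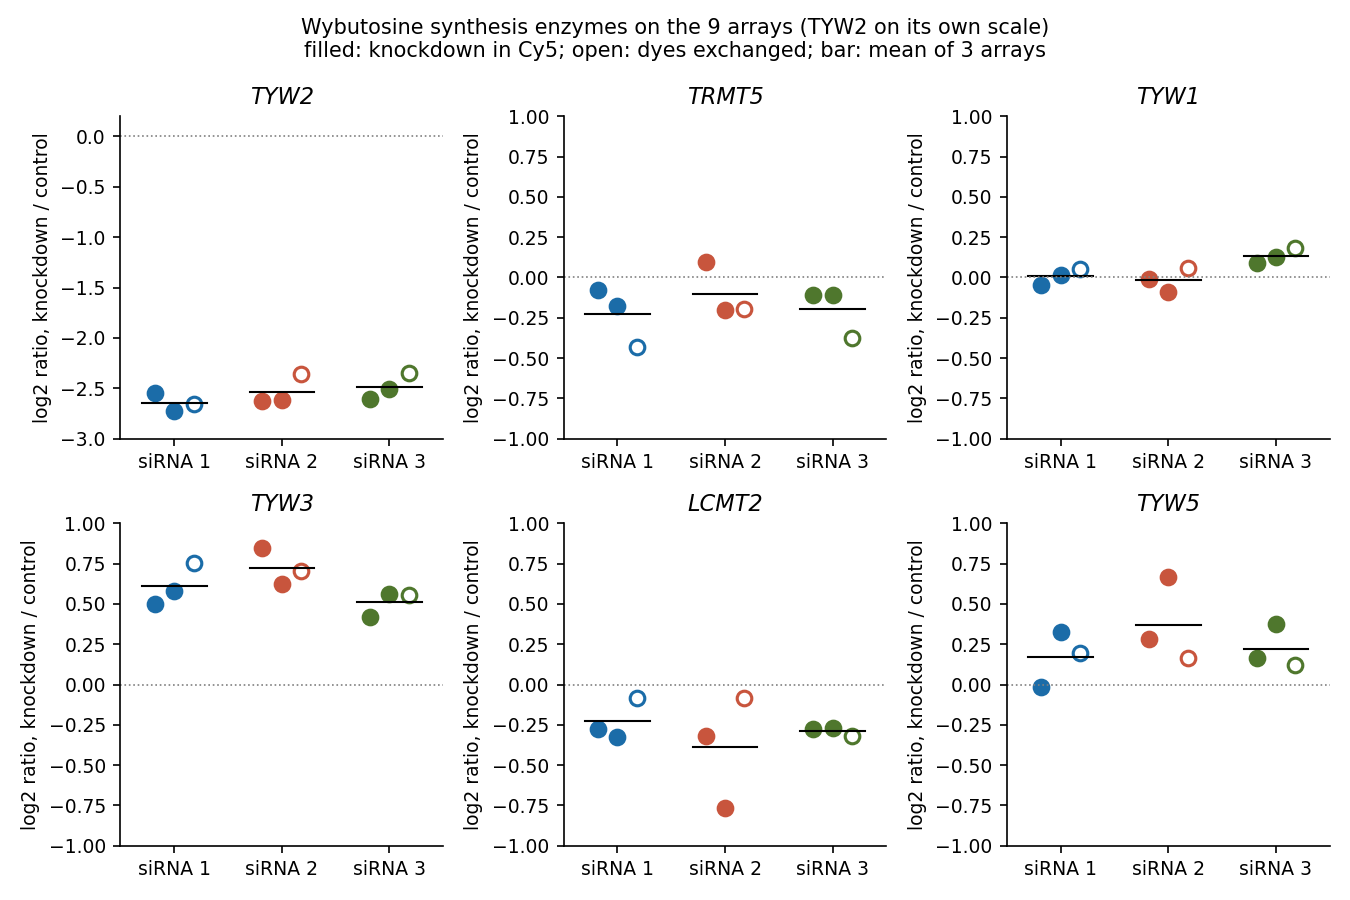
Normalised log2 ratio of knockdown over control for each of the 6 enzymes on each of the 9 arrays, by siRNA (horizontal axis). Filled points have the knockdown in Cy5, open points have the dyes exchanged, and the bar is the mean of 3 arrays; TYW2 lies between -2.73 and -2.35, TYW3 between 0.42 and 0.85, and TYW1 near 0.

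TYW3, which acts directly after TYW2 in the pathway, was higher on every array. Its log2 ratio was 0.50, 0.58 and 0.75 on arrays 1 to 3 of siRNA 1. It was 0.85, 0.62 and 0.70 with siRNA 2, and 0.42, 0.56 and 0.56 with siRNA 3. The highest and lowest arrays both had the knockdown in Cy5, and the 6 Cy5 arrays averaged 0.59 against 0.67 for the 3 with exchanged dyes. Before normalisation the knockdown intensity was 548.7 to 1153.9 and the control intensity 241.7 to 762.5. On the dye-exchanged arrays of siRNA 2 and siRNA 3 the unnormalised knockdown signal was the lower of the pair, 635.7 against 683.2 and 583.2 against 762.5. The authors' own calibrated ratios, which use a single factor per array, were above 0 for TYW3 on those arrays too, at log2 0.60 and 0.46. In the fit of all 9 arrays with a dye term, TYW3 rose with siRNA 1 (0.62, SE 0.0663, limma adjusted p = 0.00126), with siRNA 2 (0.74, adjusted p = 0.000921) and with siRNA 3 (0.53, adjusted p = 0.00299). Those calls held under all 20 alternatives, of which those on the signal filter and spot quality left the TYW3 ratios unchanged. Of all probes tested, 3.23% were called higher with each of the 3 siRNAs. Over the siRNAs the mean was 0.63 (SE 0.0728, n = 3 siRNAs, 95% interval 0.44 to 0.82), a ratio of 1.55, and it did not pass the threshold (adjusted p = 0.0823). The mean passed in 5 of 20 alternatives, and it was 0.37 with the local background added back. Among the 5 were signal in both channels and both quality filters, which left the mean at 0.63 and changed only the other probes tested. The filter to spots of quality 1 was chosen after seeing the data. Of all tested probes 1.58% had a mean at or above that of TYW3.

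**Figure D2:**
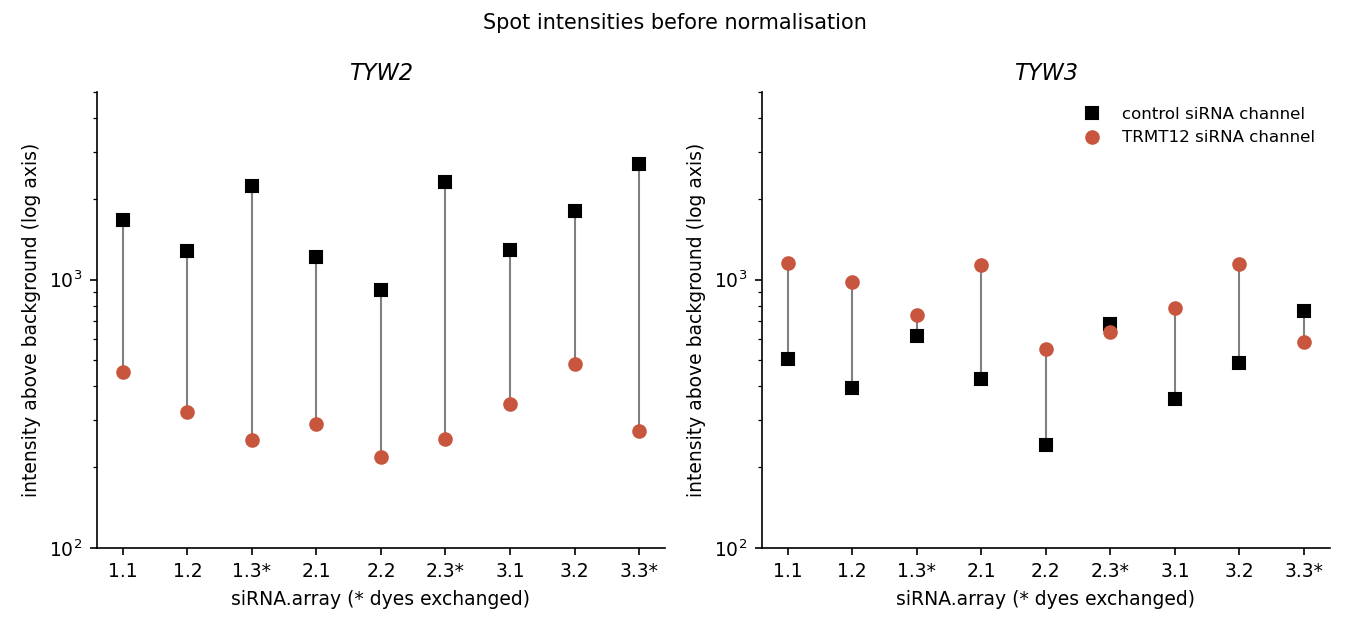
Spot intensity above local background (log axis) in the control and TRMT12 siRNA channels of each array before normalisation, for TYW2 (left) and TYW3 (right). TYW2 is lower in the knockdown channel on all 9 arrays; TYW3 is higher on 7 of them and lower on the dye-exchanged arrays of siRNA 2 and siRNA 3, where normalisation turned the ratio.

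The remaining members act before TYW2 (TRMT5 and TYW1) or after it (LCMT2 and TYW5). Their promoter windows, from RefSeq's table on build GRCh38.p14, are shown so that the start regions of members with lower, higher and near-control ratios can be read beside each other. Each runs from 250 bases before to 50 bases after the annotated start, 5′ to 3′ on the gene's strand. Capitals mark matches on either strand to the ETS motif CCGGAAG, the CCAAT box CCAAT, the GC box GGGCGG or the CRE core TGACG. The windows are chr14:60981641-60981940 on the minus strand for TRMT5, chr7:66996583-66996882 on the plus strand for TYW1, chr15:43330524-43330823 on the minus strand for LCMT2 and chr2:199955442-199955741 on the minus strand for TYW5. No window is shown for TYW2 or TYW3.
TRMT5: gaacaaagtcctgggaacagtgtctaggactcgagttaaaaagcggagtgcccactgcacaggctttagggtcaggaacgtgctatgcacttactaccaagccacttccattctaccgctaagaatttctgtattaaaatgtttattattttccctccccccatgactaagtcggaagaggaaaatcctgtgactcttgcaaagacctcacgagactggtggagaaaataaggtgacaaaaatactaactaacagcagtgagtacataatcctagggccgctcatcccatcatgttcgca
TYW1: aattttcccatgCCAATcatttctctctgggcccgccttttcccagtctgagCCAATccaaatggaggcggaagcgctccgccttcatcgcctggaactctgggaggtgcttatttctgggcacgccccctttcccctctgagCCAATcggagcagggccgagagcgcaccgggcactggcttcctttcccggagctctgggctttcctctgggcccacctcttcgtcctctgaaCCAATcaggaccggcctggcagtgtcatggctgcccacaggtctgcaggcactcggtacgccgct
LCMT2: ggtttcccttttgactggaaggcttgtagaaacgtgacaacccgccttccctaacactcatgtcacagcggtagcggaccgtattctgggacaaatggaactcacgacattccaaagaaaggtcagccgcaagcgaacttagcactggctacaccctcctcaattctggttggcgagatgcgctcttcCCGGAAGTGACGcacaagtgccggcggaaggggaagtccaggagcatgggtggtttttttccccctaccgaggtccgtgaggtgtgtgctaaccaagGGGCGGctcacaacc
TYW5: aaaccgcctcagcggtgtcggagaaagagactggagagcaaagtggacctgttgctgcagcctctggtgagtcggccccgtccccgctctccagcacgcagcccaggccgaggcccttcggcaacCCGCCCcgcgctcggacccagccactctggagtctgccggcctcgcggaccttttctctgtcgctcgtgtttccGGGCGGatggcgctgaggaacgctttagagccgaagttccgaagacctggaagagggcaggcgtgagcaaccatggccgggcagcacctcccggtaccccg
GC content was 45.0% for TRMT5, 61.3% for TYW1, 55.7% for LCMT2 and 66.7% for TYW5, and the median of all 35116 promoters in the table was 58.7%. TYW1 held 4 CCAAT boxes, and 34.6% of all promoters held at least 1. TYW5 held 2 GC boxes, a motif present in 45.0% of promoters. LCMT2 held 1 ETS motif, 1 CRE core directly after it and 1 GC box. The ETS motif was found in 10.3% of promoters and the CRE core in 24.6%. In TRMT5 none of these letters was found.

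TRMT5, the methyltransferase of the opening step, was lower on 8 of 9 arrays. Its log2 ratio was -0.08, -0.17 and -0.43 on arrays 1 to 3 of siRNA 1. It was 0.09, -0.20 and -0.20 with siRNA 2, and -0.11, -0.11 and -0.38 with siRNA 3. The lowest array of siRNA 1 and of siRNA 3 was the one with exchanged dyes, and the 3 such arrays averaged -0.34 against -0.10 for the 6 Cy5 arrays. The dye term was 0.12 (limma adjusted p = 0.062). TRMT5 fell with siRNA 1 (-0.27, SE 0.0657, adjusted p = 0.0275) and with siRNA 3 (-0.24, adjusted p = 0.0463), and the value with siRNA 2 was -0.14 (adjusted p = 0.171). On the Cy5 arrays alone the values with siRNA 1 and siRNA 3 were -0.13 and -0.11 and neither passed. Over the siRNAs the mean was -0.22 (SE 0.0697, 95% interval -0.40 to -0.04, adjusted p = 0.166), and 12.2% of tested probes were as low or lower.

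TYW1, the ring-forming enzyme, had the ratios closest to 0. Its log2 ratio was -0.05, 0.01 and 0.05 on arrays 1 to 3 of siRNA 1. It was -0.01, -0.09 and 0.06 with siRNA 2, and 0.09, 0.13 and 0.18 with siRNA 3. The 3 arrays of siRNA 3 were all above those of the other siRNAs. TYW1 rose with siRNA 3 by 0.15 (SE 0.0410, limma adjusted p = 0.0485), and that call was lost or its sign turned in 12 of 20 alternatives. With siRNA 1 the value was 0.02 (95% interval -0.08 to 0.12) and with siRNA 2 it was 3.46e-05 (95% interval -0.10 to 0.10). Over the siRNAs it was 0.06 (95% interval -0.12 to 0.23, adjusted p = 0.658), an interval from 91.9% to 118% of control. The paralog TYW1B had no probe on the array, and whether the TYW1 probe also reads it was not tested.

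LCMT2 was lower on all 9 arrays. Its log2 ratio was -0.28, -0.32 and -0.08 on arrays 1 to 3 of siRNA 1. It was -0.32, -0.77 and -0.08 with siRNA 2, and -0.28, -0.27 and -0.32 with siRNA 3. The array at -0.77 stood apart: its spot had a quality of 0.3 on a scale to 1, and its knockdown signal was 2.60 background SDs above background. On the other 8 arrays the spot quality was 1. The limma estimates were -0.19, -0.35 and -0.25 with siRNA 1, 2 and 3 (adjusted p = 0.249, 0.0563 and 0.148). The value with siRNA 2 passed in 6 of 20 alternatives, and the value with siRNA 3 was -0.11 without its array 3. Over the siRNAs the mean was -0.27 (SE 0.0676, 95% interval -0.44 to -0.09, adjusted p = 0.12). It was -0.07 with the local background added back. As reported, 7.85% of tested probes were as low or lower. With only spots of quality 1, an alternative chosen after seeing the data, the 3 estimates were -0.21, -0.20 and -0.27 and each passed (adjusted p = 0.0148, 0.0401 and 0.0042), out of 18561 probes. Leaving out array 2 of siRNA 2 gave the same 3 values, with siRNA 1 and siRNA 3 past the threshold. The mean over the siRNAs was -0.23 in both and did not pass (adjusted p = 0.0739 with spots of quality 1). Of all tested probes with a ratio on every array, 7.6% were lower on all 9 and 6.95% were higher on all 9.

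TYW5 was higher on 8 of 9 arrays and, like LCMT2, had a dim spot, with a mean log2 intensity under 8.64, the median of the tested probes. Its log2 ratio was -0.01, 0.33 and 0.20 on arrays 1 to 3 of siRNA 1. It was 0.28, 0.67 and 0.16 with siRNA 2, and 0.16, 0.38 and 0.12 with siRNA 3. Array 2 was the highest for each siRNA. Spot quality fell short of 1 on 2 arrays, at 0.4 for siRNA 1 array 2 and 0.7 for siRNA 2 array 1. The estimates were 0.15, 0.35 and 0.20 with siRNA 1, 2 and 3, and none passed (limma adjusted p = 0.391, 0.0631 and 0.268). The value with siRNA 2 passed in 5 of 20 alternatives. Over the siRNAs the mean was 0.23 (SE 0.0691, 95% interval 0.05 to 0.41, adjusted p = 0.151), and 13.3% of tested probes were as high or higher. With the local background added back the mean was 0.06. With an array left out, the value with siRNA 1 ran from 0.04 without its array 3 to 0.26 without its array 1.

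**Figure D3:**
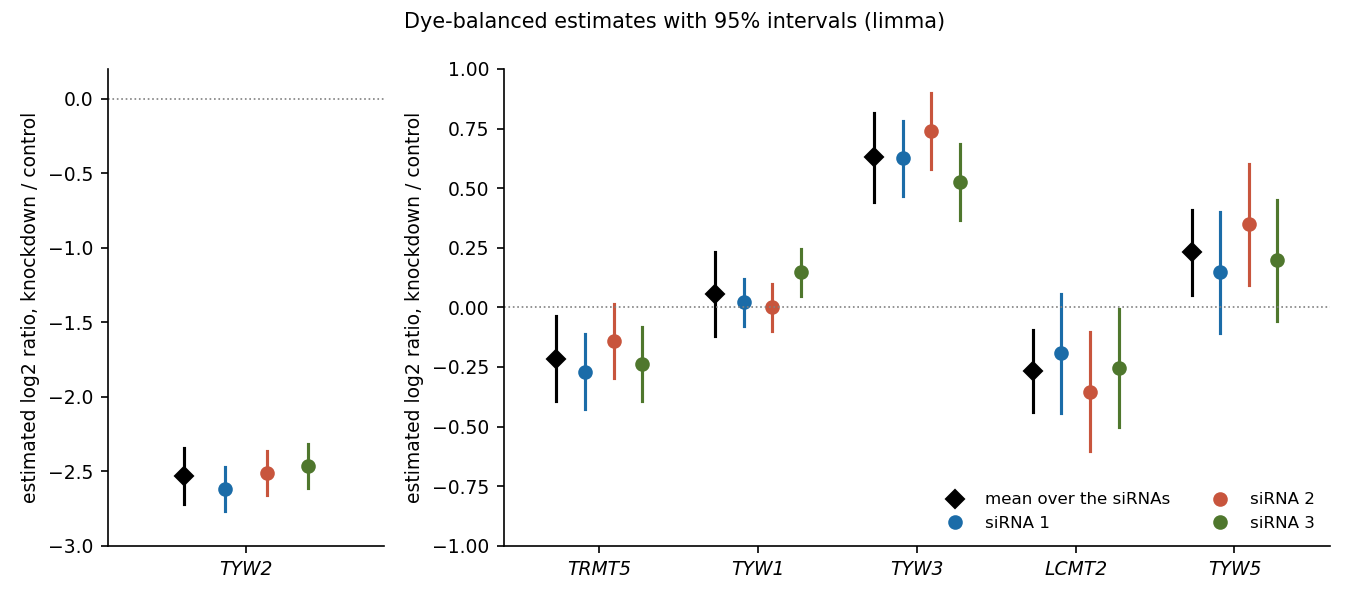
Dye-balanced limma estimates of the log2 ratio of knockdown over control with 95% intervals, for the mean over the siRNAs (black diamonds) and for each siRNA (circles). TYW2 lies near -2.5 and TYW3 between 0.53 and 0.74 with each siRNA; the other 4 members lie within 0.4 of 0.

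Set side by side, the 6 members differed in direction. With siRNA 1, TYW3 was called higher and TYW2 and TRMT5 lower, 3 of 6, and 22.9% of all tested probes were called (11.6% higher, 11.3% lower). With siRNA 2, TYW3 was called higher and TYW2 lower, 2 of 6, and the background was 20.2% (10.5% higher, 9.74% lower). With siRNA 3, TYW3 and TYW1 were called higher and TYW2 and TRMT5 lower, 4 of 6, and the background was 20% (9.9% higher, 10.1% lower). Without TYW2, the siRNA target, the counts were 2 of 5, 1 of 5 and 3 of 5. Over the siRNAs TYW2 alone was called, 1 of 6, and it was the 1 called probe among all tested (0.00354%), although 5 of 6 members and 23.4% of all tested probes had an unadjusted p under 0.05. The median of the 6 means was -0.08, and the median of all tested probes was 0.0005. The TYW3 mean was higher than the mean of each other member, and the order below it was TYW5, TYW1, TRMT5, LCMT2 and TYW2. The 95% intervals of neighbours overlapped from TYW5 to TYW1, from TYW1 to TRMT5 and from TRMT5 to LCMT2.

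Limma called 0 of 6 members different between siRNAs, and 1 of them had an unadjusted p under 0.05 in 1 of the 3 differences. The background of such calls was 2.62% for siRNA 2 minus 1, 9.26% for siRNA 3 minus 1 and 10.2% for siRNA 3 minus 2, and these shares changed widely with the processing. The lowest adjusted p was that of TYW1 for siRNA 3 minus siRNA 2, a difference of 0.15 (95% interval 0.01 to 0.28, limma adjusted p = 0.165). For TYW3 the same difference was -0.21 (95% interval -0.43 to 0.00, adjusted p = 0.202). For TYW2, siRNA 3 minus siRNA 1 was 0.16 (95% interval -0.05 to 0.36). The widest intervals were those of TYW5, where siRNA 2 minus siRNA 1 was 0.20 (95% interval -0.15 to 0.55). Limma called 0 of 6 members for the dye term, TRMT5 alone had an unadjusted p under 0.05, and 29.2% of all tested probes were called.

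**Figure D4:**
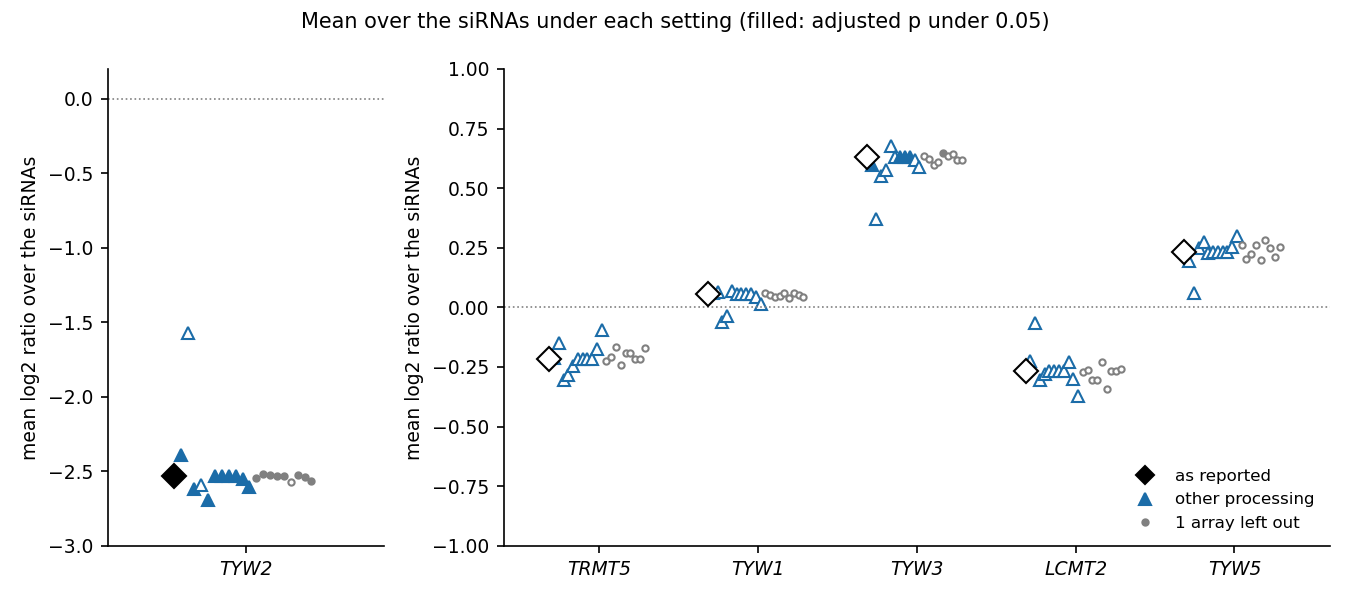
Mean log2 ratio over the siRNAs of each member under the reported processing (diamond), 11 other processing settings (triangles) and with each of 9 arrays left out (dots); filled symbols have a limma adjusted p under 0.05. TYW2 ranges from -2.69 to -1.57, TYW3 from 0.37 to 0.68, and TYW1 crosses 0.

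The genes whose pattern came closest to TYW2 and TYW3 were ranked by the root mean square difference of log2 ratio over the 9 arrays, among 17591 named probes with a ratio on all 9. For TYW2 the nearest were EVPL (1.60), FASN (1.63), MAB21L4 (1.73), DNAJC22 (1.77) and TMEM9B (1.78), and none came close to its depth. EVPL, which encodes the cell junction protein envoplakin, and FASN, the fatty acid synthase, each had a mean over the siRNAs of -0.89. For TYW3 the nearest was GOLGA4, which encodes a golgin of the trans-Golgi, at 0.0796, with values from 0.50 to 0.82. PNISR, ARRDC3, THSD7A and RGPD5 followed at 0.143, 0.146, 0.147 and 0.147. RGPD5 has near-identical copies in the genome, so its probe may read several genes.

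Genes related to the pathway were read by their brightest probe. LCMT1, a carboxyl methyltransferase of protein phosphatase and a paralog of LCMT2, fell with each siRNA, by 0.42, 0.27 and 0.22 on the log2 scale (limma adjusted p = 0.00195, 0.0122 and 0.024). Of all tested probes 2.58% were called lower with each siRNA. Its dye term was called as well (-0.14, adjusted p = 0.018). The other LCMT1 probe gave -0.18, -0.45 and -0.48, and passed with siRNA 2 and siRNA 3. Over the siRNAs the probes had means of -0.30 and -0.37 (adjusted p = 0.113 and 0.1), and both were lower on 9 of 9 arrays. Of 11 tested enzymes and complex subunits that modify the same position in other transfer RNAs, 3 were called lower with siRNA 1, 3 higher and 1 lower with siRNA 2, and 1 lower with siRNA 3. Of all tested probes 11.3% were called lower with siRNA 1, 10.5% higher and 9.74% lower with siRNA 2, and 10.1% lower with siRNA 3. The dimmer probe of TRMO, a gene of this list, was called lower with siRNA 3 (-0.25, limma adjusted p = 0.0368). Its brighter probe was not called with any siRNA. The 11 genes had a median mean of 0.01 and ran from -0.22 for ADAT1, an adenosine deaminase of alanine transfer RNA, to 0.12 for TRIT1, an isopentenyltransferase.

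Among 6 partners of phenylalanine transfer RNA, the median mean was -0.07. By their brightest probes 2 were called lower with siRNA 1, 1 lower with siRNA 2 and none with siRNA 3. Of all tested probes 11.3%, 9.74% and 10.1% were called lower. The lowest mean was that of FARSA, the alpha subunit of the cytosolic phenylalanyl synthetase, at -0.14, with -0.23 for its other probe. The highest was that of FTSJ1, which methylates the anticodon loop, at 0.09. Other probes were called too: FARSA lower with siRNA 1 (-0.19) and siRNA 3 (-0.40), THADA lower with siRNA 3 (-0.19) and FARS2 lower with siRNA 1 (-0.28). The dim other FARSB probe was called higher with siRNA 1 (1.41) and had a mean of 0.33. The dim other WDR6 probe had a mean of 0.65 (SE 0.253) and was not called with any siRNA. Of 3 genes that supply S-adenosylmethionine, MAT2A, the synthetase, was lowest at -0.21 and was lower on 9 of 9 arrays. It fell with siRNA 1 (-0.39, limma adjusted p = 0.00129) and siRNA 2 (-0.18, adjusted p = 0.0267), and the value with siRNA 3 was -0.08. AHCY, the hydrolase of the methylation by-product, was highest at 0.07, while its other probe gave -0.08. The brighter AHCY probe rose with siRNA 3 (0.28, adjusted p = 0.0386), and the other was not called with any siRNA.

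The nearest protein-coding genes on either side of the members were read as well, with 10 of 12 tested and a median mean of 0.01. By brightest probe none was called with siRNA 1, 3 were called higher with siRNA 2, and 3 higher and 1 lower with siRNA 3. Of all tested probes 22.9% were called with siRNA 1. With siRNA 2 10.5% were called higher and 9.74% lower, and with siRNA 3 9.9% higher and 10.1% lower. On either side of TYW2, TMEM65 had a mean of -0.01 and RNF139 of 0.02. Beside TYW3, CRYZ had a mean of 0.03 (SE 0.0730, adjusted p = 0.803) and LHX8 of -0.09. C2orf69, beside TYW5, was the highest of the neighbours at 0.49, with 0.07, 0.83 and 0.56 for siRNA 1, 2 and 3. It rose with siRNA 2 (limma adjusted p = 0.0071) and siRNA 3 (adjusted p = 0.0268). MAIP1, on the other side of TYW5, had a mean of -0.10. TGM7, beside LCMT2, had a mean of -0.0041. MNAT1 and SLC38A6, on either side of TRMT5, had means of 0.27 and 0.14, above 0 where TRMT5 was below. MNAT1 rose with siRNA 2 (0.25, adjusted p = 0.0289) and siRNA 3 (0.50, adjusted p = 0.00237). SLC38A6 rose with siRNA 2 (0.29, adjusted p = 0.0287) and siRNA 3 (0.26, adjusted p = 0.0406), and its dimmer probe was not called with any. SBDS, beside TYW1, was the lowest at -0.11 and was called lower with siRNA 3 (-0.22, adjusted p = 0.0213).

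**Figure D5:**
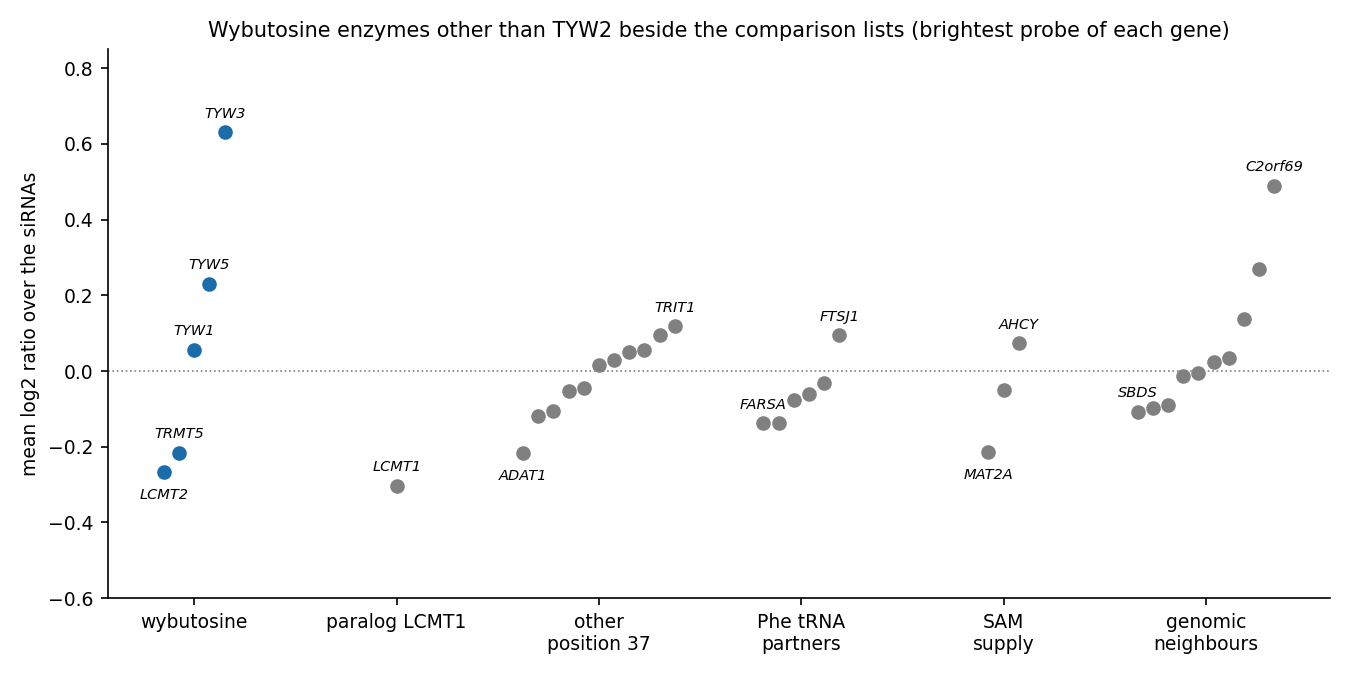
Mean log2 ratio over the siRNAs (vertical axis) of the wybutosine enzymes other than TYW2 (blue) and of the related genes and genomic neighbours (grey), 1 point a gene by its brightest probe. TYW3 at 0.63 lies above every related gene and neighbour shown, of which C2orf69 at 0.49 is the highest. A dimmer probe of WDR6, not shown, had a mean of 0.65.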

How the data were processed

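Per the file headers, the authors' deposited files give, spot by spot, a mean intensity per channel above the local background, a calibrated ratio that divides knockdown over control by 1 factor per array, and a spot quality, a fraction from 0 to 1. A deposited table of log2 ratios equalled log2 of that ratio within 0.001, with the sign turned on the 3 dye-exchanged arrays, so its scale is known and its columns are not centred. Its column medians were -0.0578, -0.103, -0.154 (siRNA 1), -0.258, -0.206, -0.0438 (siRNA 2), -0.103, 0.0421 and -0.0467 (siRNA 3). It was not used further, and directions follow the array files. Per the series text, the columns of the dye-exchanged arrays had already been reversed. The image program and genome build are not given in the sources used here. Log2 ratios were normalised by loess within arrays with limma 3.58.1 (R 4.3.3), the 960 blank spots at weight 0. Tested were 28259 probes whose signal passed 2 background SDs in 1 channel or both on 6 or more arrays, and whose ratio existed in each dye orientation for each siRNA. The mean over the siRNAs used 1 dye-balanced value per siRNA against 0, and single siRNAs and their differences used all 9 arrays with a dye term, in limma's moderated test. Benjamini-Hochberg adjustment ran over all tested probes, with a threshold of 0.05. The fit was tested on simulated data with independent noise on each array. That test does not cover shared control RNA or spread between cultures. The number of arrays limits the precision, and the control's own spread between cultures is left out.

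Probe names came from the platform annotation and from transcript accessions, updated with RefSeq's gene table of GRCh38.p14; of 35328 probes, 10243 had no name here and 1025 matched several genes. The related genes named are those called with all 3 siRNAs in the same direction, each list's highest and lowest mean, and the direct neighbours of the members. Markers, and further genes that differed between siRNAs, were named after their values were seen. The members, lists and named genes were chosen with earlier results of these data known. Background, normalisation, filters, spot quality, dye handling and left-out arrays were varied.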

Additional observations from a re-analysis of the deposited data

Results flagged for a closer look

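By a test of the difference itself, the genes named here differed between siRNAs (log2 scale, limma adjusted p). Tested by brightest probe were 1 paralog, 11 enzymes and subunits acting at the same position in other transfer RNAs, and 6 phenylalanine partners. Also tested were 3 S-adenosylmethionine supply genes, 9 line markers, 4 markers of other cells and 10 neighbours. The genes of these lists not named here were not called. MAT2A, the S-adenosylmethionine synthetase, differed by 0.30 for siRNA 3 minus siRNA 1 (adjusted p = 0.0246). YRDC, an enzyme of threonylcarbamoyl adenosine synthesis, differed by 0.46 for siRNA 2 minus siRNA 1 (adjusted p = 0.029) and 0.52 for siRNA 3 minus siRNA 1 (adjusted p = 0.00973). Among subunits of the complex that completes that modification, GON7 gave 0.41 and 0.27 for the same differences (adjusted p = 0.028 and 0.0368). TPRKB gave 0.30 and 0.22 (adjusted p = 0.0407 and 0.0491), and TP53RK gave 0.32 for siRNA 3 minus siRNA 2 (adjusted p = 0.0282). That last difference was -0.39 for CDKAL1 (adjusted p = 0.0362) and -0.28 for FARS2 (adjusted p = 0.0322). MNAT1, beside TRMT5, gave 0.44 for siRNA 3 minus siRNA 1 (adjusted p = 0.023).

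Of the markers, FOXA1 gave 0.53 for siRNA 3 minus siRNA 2 (adjusted p = 0.0124). ESR1 gave -1.02 for siRNA 2 minus siRNA 1 (adjusted p = 0.022) and 0.97 for siRNA 3 minus siRNA 2 (adjusted p = 0.0103). Of all tested probes 2.62%, 9.26% and 10.2% were called for siRNA 2 minus 1, 3 minus 1 and 3 minus 2. Whether the listed genes were called more often than these shares was not tested.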

How the results depend on the processing

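Each member's estimates were recomputed under 20 alternatives. The alternative with only spots of quality 1 was chosen after seeing the data. TYW2 with each siRNA and TYW3 with each siRNA kept direction and call in all alternatives. Those on the signal filter and spot quality left the ratios of TYW2 and TYW3 unchanged, so they are no separate check of these values. The TYW2 mean over the siRNAs lost its call with background added back (-1.57, adjusted p = 0.0561) and with the authors' ratios (-2.60, adjusted p = 0.0532). With an array left out it ran from -2.57 to -2.52. The TYW3 mean passed with normexp and an offset of 50 (0.60, adjusted p = 0.0332), with signal in both channels on all arrays (0.63, adjusted p = 0.0208), without the lowest 10% of spot quality (0.63, adjusted p = 0.0314) and with only spots of quality 1 (0.63, adjusted p = 0.019). With an array left out it ran from 0.60 to 0.65, and passed without array 2 of siRNA 2 (adjusted p = 0.0495). The cause was not tested. Median centring turned the TYW1 mean to -0.0614, and the authors' ratios turned it to -0.0383. For siRNA 1 the TYW1 values turned to -0.149 and -0.0995 in these, and to -0.0159 on Cy5 arrays alone. For siRNA 2 they turned to -0.0312, -0.0515 and -0.0482, to -0.0135 without a dye term, and ran from -0.0162 to 0.0238 with an array left out. For siRNA 3, median centring gave -0.0036. The siRNA 1 and siRNA 3 calls of TRMT5 were lost in 7 and 11 alternatives.

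Members called over the siRNAs numbered 1 as reported, 2 with normexp, with signal in both channels and with either quality filter, 0 with background added back or the authors' ratios, and 0 to 2 with an array left out. With siRNA 1 they were 2 to 4 with an array left out. With siRNA 2 they were 4 in place of 2 with normexp, scaling between arrays, signal in both channels and either quality filter, and 2 with any array left out. With siRNA 3 they were 2 in place of 4 with median centring, without a dye term and on Cy5 arrays alone, and 2 to 5 with an array left out.

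Probes called over the siRNAs numbered 1 as reported, 1076 with normexp, 1589 with signal in both channels, 1281 and 1788 with the quality filters, 2 with scaling, 0 with background added back or the authors' ratios, and 0 to 401 with an array left out. With siRNA 1 the 6467 calls became 3387 without a dye term and 2295 to 8041 with an array left out. With siRNA 2 the 5720 became 2210 with median centring, 3719 with the authors' ratios, 2559 without a dye term and 3483 to 4883. With siRNA 3 the 5656 became 3331 with median centring, 2656 without a dye term and 2248 to 6832. The split of 3284 higher and 3183 lower with siRNA 1 became 1538 and 3472 under median centring, and 2306 and 3647 for the authors' ratios. With siRNA 2 the split of 2967 and 2753 became 1481 and 2238 with the authors' ratios. With siRNA 3 the split of 2799 and 2857 became 806 and 2525, and 1475 and 3084.

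For siRNA 2 minus 1 the 740 ranged from 12 to 2637 over the other processing and from 40 to 595 with an array left out. For siRNA 3 minus 1 the 2618 ranged from 0 to 5071 and from 317 to 3568, and for siRNA 3 minus 2 the 2875 ranged from 26 to 5073 and from 556 to 2377.

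The filter on signal removed no probe that had a dye-balanced ratio. No second probe of a member was on the array, so that alternative was not run. Knockdown and control were paired within each array by their ratio. Pairing between arrays of different siRNAs was not possible because the labels give no replicate numbers.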
